A study of Mus musculus with 4 samples.

Results

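The miR-129 family was followed in small RNA libraries of the mouse main olfactory epithelium, the sheet of odour-sensing neurons, supporting cells and glands in the nose. The family was taken by name from a table of 1167 miRNAs: the 5 rows that begin miR-129- or miR-129b-, which are mmu-miR-129-5p, mmu-miR-129-1-3p, mmu-miR-129-2-3p, mmu-miR-129b-5p and mmu-miR-129b-3p. The family was selected on the AC3-/- and WT means of these rows and their log2 fold changes, so the difference between genotypes is given here as a description. The 4 libraries came from male C57BL/6 mice aged 3 months, 2 from wild type (WT) and 2 from AC3-/- mice, which lack adenylyl cyclase 3, the enzyme that makes cAMP when an odorant receptor is activated. The labels do not say how the AC3 allele was made, or whether each library is a mouse of its own, so the spread between libraries may be technical. Small RNA libraries do not read Adcy3 mRNA, which left the genotype unchecked.

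A miRNA hairpin is cut into a 5p and a 3p arm, either of which can be loaded into Argonaute, where bases 2 to 8, the seed, pair with target mRNAs. miR-129 is known as a brain-enriched family: miR-129-5p represses the potassium channel mRNA Kcna1 and takes part in the weakening of synapses after prolonged activity, and the 3p arm has been described in the formation of cilia through the centriolar protein CP110. Its precursor is encoded at separate loci, so the shared 5p arm cannot be assigned to a locus while the 3p arms can.

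The mature sequences are shown because they decide which rows can be told apart. RefSeq (GRCm38.p6) held 4 of the 5 members; miR-129-1-3p had no mature entry there. Capitals mark the seed.
miR-129-5p: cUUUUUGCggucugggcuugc
miR-129-2-3p: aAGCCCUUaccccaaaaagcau
miR-129b-5p: gCUUUUUGggguaagggcuucc
miR-129b-3p: cAAGCCCAgaccgcaaaaagauu
The 4 seeds differ from each other, and no other of the 947 rows of the table with a RefSeq mature sequence carries any of them. The seed of miR-129b-5p is the same letters as bases 1 to 7 of miR-129-5p.

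The 3 hairpins are shown with capitals on the arms; in Mir129-1 and Mir129-2 these are miR-129-5p and the best ungapped match to miR-129-2-3p, and in Mir129b they are its own arms.
Mir129-1: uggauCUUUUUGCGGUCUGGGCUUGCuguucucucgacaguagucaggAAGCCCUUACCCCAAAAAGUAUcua
Mir129-2: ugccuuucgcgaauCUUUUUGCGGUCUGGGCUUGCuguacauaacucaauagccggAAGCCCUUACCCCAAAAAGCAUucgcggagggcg
Mir129b: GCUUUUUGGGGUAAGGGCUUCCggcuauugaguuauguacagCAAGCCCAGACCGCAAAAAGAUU
Mir129-1 lies on the plus strand at chr6:29022619-29022691 (GRCm38), in an exon of the lincRNA gene Gm3294. Mir129-2 lies on the minus strand at chr2:94241364-94241453, in an intron of the lincRNA gene Mir670hg, which is on the same strand. Mir129b lies inside the Mir129-2 hairpin on the opposite strand, at chr2:94241378-94241442. Both Mir129-1 and Mir129-2 hold the whole of miR-129-5p. Counted from the 5′ end of miR-129-2-3p, the 3p stretch of Mir129-1 differs by 1 substitution, C20U, so 3p reads of the loci separate only on that base.

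The rows of miR-129-5p and miR-129b-3p counted nearly the same reads and were taken as 1 observation. They overlap by 20 bases on opposite strands of chromosome 2. Whole reads per library, worked back from the deposited genotype means, are given in the order AC3-/- a, AC3-/- b, WT a and WT b. miR-129-5p had 255, 139, 130 and 1315 reads. miR-129b-3p had 1, 1, 4 and 22 reads fewer, which left it with 99.6%, 99.3%, 96.9% and 98.3% of the reads of miR-129-5p. Letters name the libraries by size factor and carry no replicate number from the labels. Overlaps of mature sequences on opposite strands by at least 15 bases were listed where at least 1 row had 100 reads or more over the 4 libraries. There were 15, with miR-9-3p and miR-9b-5p counted for chromosome 7 and again for chromosome 3. In 7 of the 15, miR-129-5p with miR-129b-3p among them, the rows lay within 10% of each other in all 4 libraries.

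miR-129b-5p and miR-129-2-3p also overlap by 20 bases on opposite strands, but their rows were not alike. miR-129-2-3p had 51, 30, 28 and 37 reads and miR-129b-5p 11, 6, 11 and 23. The positions differ between the pairs: miR-129-5p lies wholly inside the Mir129b hairpin, while miR-129-2-3p reaches 2 bases past its end. The reverse complement of miR-129b-5p, 22 bases long, shares its whole length with the Mir129-2 hairpin and 21 bases with the Mir129-1 hairpin, so the source of its few reads cannot be told from sequence.

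WT library b stood apart from the other 3 libraries across the miRNAs that could be compared. Library values were had for 443 miRNAs that averaged 10 or more normalised reads. Of these, 114 lay 2-fold or more apart between the WT libraries against 26 between the AC3-/- libraries, and the log2 ratio had an SD of 1.11 in the WT pair and 0.57 in the AC3-/- pair. The library values rest on 645317 to 807698 whole reads per library in the rows that could be split; the most abundant miRNAs could not be.

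miR-129-1-3p, the arm that marks the chromosome 6 locus, was high in 1 library. It had 24.4 and 28.2 normalised reads (counts divided by a size factor) in the AC3-/- pair, library a first, and 43.6 and 821 in the WT pair. The groups did not overlap, as in 33.9% of the 443 miRNAs, but WT library a lay far nearer to the AC3-/- libraries than to its own partner. In the authors' deposited table the means were 26.3 in AC3-/- and 432 in WT, 16.4-fold apart. Its shrunken log2 fold change of -1.47 was the lowest of all 1167 rows in the authors' deposited table, where its adjusted p was 0.925. The log2 ratio of the means was -4.04, and it was -0.73 against WT library a alone.

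miR-129-2-3p, the arm that marks the chromosome 2 locus, stayed within a narrow range. It had 44.4 and 27.3 normalised reads in AC3-/- and 29.8 and 43.3 in WT, so the groups overlapped and each held a high and a low library. The means in the authors' deposited table were 35.9 and 36.5, with an adjusted p of 0.990. The highest library was 1.63-fold above the lowest, against 33.7-fold for miR-129-1-3p. WT library b, so high for the other locus, was not the highest for this one.

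miR-129-5p, the arm made from both loci, followed miR-129-1-3p in being high in WT library b. It had 222 and 127 normalised reads in AC3-/- and 138.1 and 1538 in WT. WT library a lay between the AC3-/- libraries, so the groups overlapped. The authors' deposited table gives means of 174 and 838, a shrunken log2 fold change of -1.03 and an adjusted p of 0.940. Without WT library b the direction turned: the log2 ratio of the means went from -2.27 to 0.34. miR-129b-3p, which shares these reads, went from -2.25 to 0.37.

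miR-129b-5p, the scarcest member, had 9.58 and 5.46 normalised reads in AC3-/- and 11.7 and 26.9 in WT. The groups did not overlap, as in 33.9% of the 443 miRNAs, and AC3-/- was the lower, as in 17.2% of them. AC3-/- library a and WT library a each rest on 11 reads, and the row averaged 10 or more only through WT library b. The log2 ratio of the means in the authors' deposited table was -1.36, with an adjusted p of 0.940, and it was -0.64 against WT library a alone.

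**Figure D1:**
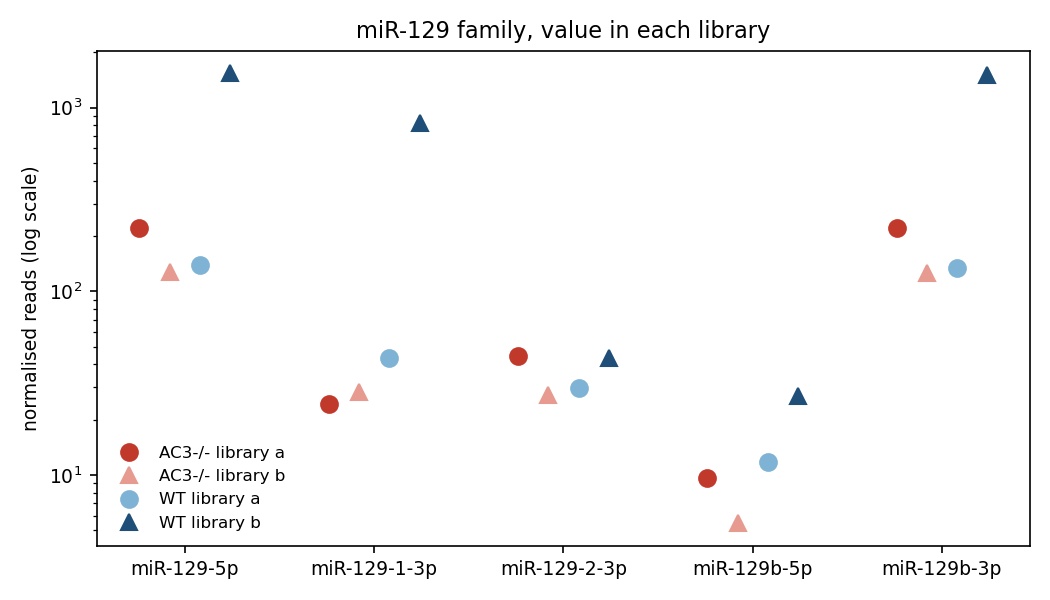
Normalised reads of the 5 miR-129 rows (log scale, 1 point per library; red for AC3-/-, blue for WT, circles for library a and triangles for library b). miR-129-5p, miR-129-1-3p and miR-129b-3p are high in WT library b alone (1538, 821 and 1512), while miR-129-2-3p stays between 27.3 and 44.4.

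Of the 5 members, 0 passed an adjusted p of 0.05 in the authors' deposited table, where 0.0857% of all rows did. 3 members, 2 of which share reads, had an unadjusted p under 0.05 there. All were lower in AC3-/-, and 1.97% of all rows had such a p in that direction. The authors' deposited table marks these 3 members, miR-129-5p, miR-129-1-3p and miR-129b-3p, as significant despite their adjusted p. The members were chosen with this contrast known and nothing is read from the count. A limma fit to the library values of 443 miRNAs called 0 members at an adjusted p of 0.05 (background 0%), and 0 members had an unadjusted p under 0.05 in it (background 4.06%). Without WT library a, where the lone WT library is assumed to vary like the AC3-/- pair, limma called 3 members and 14.4% of all miRNAs tested. Without WT library b it called 0 members, in a fit that called 0.226% of all miRNAs, and without either AC3-/- library it called 0 members and 0% of all. These fits use the contrast on which the family was chosen, so nothing is read from their counts of members either.

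The loci were compared within each library through their 3p arms, which cancels the scaling. miR-129-1-3p made up 28 of 79 3p reads in AC3-/- library a, or 35.4% (exact Clopper-Pearson 95% interval 25.0% to 47.0%). It made up 31 of 61 in AC3-/- library b, or 50.8% (37.7% to 63.9%). In WT library a it made up 41 of 69, or 59.4% (46.9% to 71.1%). In WT library b it made up 702 of 739, or 94.99% (93.2% to 96.5%). The intervals of the first 3 libraries overlap each other, and that of WT library b lies above them all. Intervals cover counting error only, since the protocol describes no molecular identifiers, and ligation can favour either arm.

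On the log2 scale the ratio of miR-129-1-3p to miR-129-2-3p was -0.87 and 0.05 in AC3-/- and 0.55 and 4.25 in WT. Its mean was -0.41 ± 0.65 (SD, n = 2) in AC3-/- and 2.40 ± 2.61 (SD, n = 2) in WT, a difference of -2.81. That difference is close to the SD of the WT pair. Without WT library b the difference was -0.96, and without WT library a it was -4.65.

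The balance of arms moved little beside these levels. miR-129-5p was 3.23 and 2.28 times the summed 3p arms in the AC3-/- libraries, and 1.88 and 1.78 times in the WT libraries. The WT libraries, which differed 11.1-fold in miR-129-5p itself, had nearly the same ratio. Over the 4 libraries the ratio spanned 1.81-fold, while the level of miR-129-5p spanned 12.2-fold. The log2 ratio was higher in AC3-/- by 0.57 (1.44 ± 0.36 against 0.87 ± 0.06, SD, n = 2 each).

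**Figure D2:**
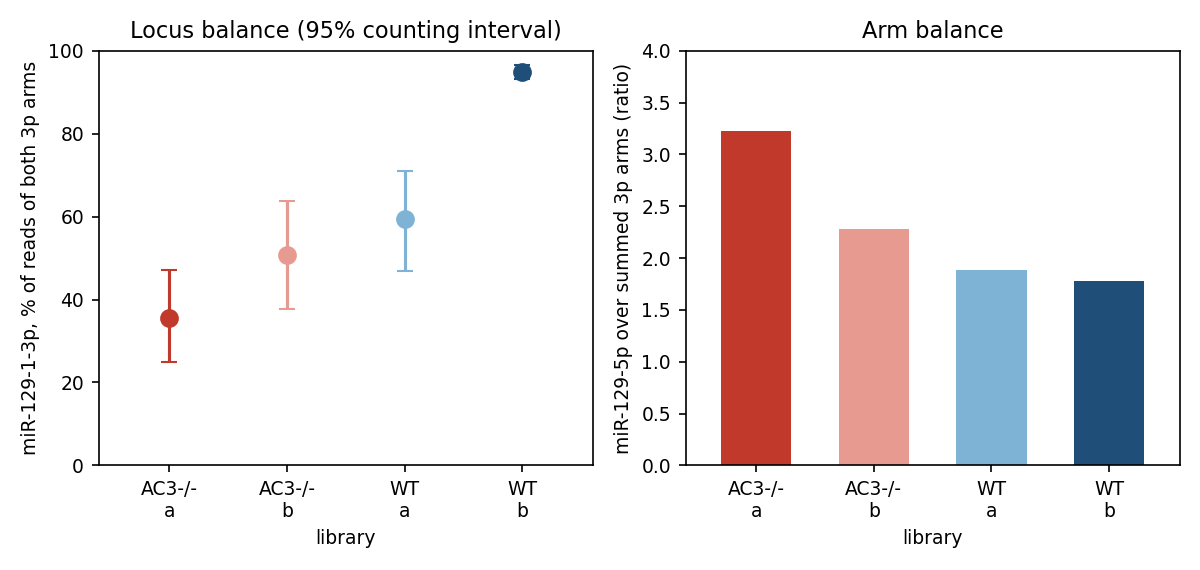
Left, the share of 3p-arm reads that were miR-129-1-3p in each library (%, bars are exact 95% counting intervals); right, the ratio of miR-129-5p to the summed 3p arms (bars start at 0). The share is 94.99% in WT library b and 35.4% to 59.4% in the other 3, while the arm ratio lies between 1.78 and 3.23 in all 4.

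The difference between the WT libraries was set beside the rest of the table. miR-129-1-3p was 18.8-fold higher in WT library b than in WT library a (95% counting interval 13.7 to 26.5). miR-129-5p was 11.1-fold higher (9.29 to 13.4). miR-129b-5p was 2.30-fold higher (1.08 to 5.23). miR-129-2-3p was 1.45-fold higher, with an interval of 0.866 to 2.47 that includes no difference. 4 of the 5 members, 2 of which share reads, were at least 2-fold higher in WT library b, against 14.4% of the 443 miRNAs. Of these members, miR-129b-5p reached the average needed to be among the 443 only through its value in WT library b. It was therefore counted in part because it was high there, and nothing is read from the count of members. Each library is 1 sample here and no test is possible. Ranked by log2(normalised reads + 1) in WT library b less library a, miR-129-1-3p was number 2 of 443, miR-129-5p number 7, miR-129b-5p number 56 and miR-129-2-3p number 125.

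**Figure D3:**
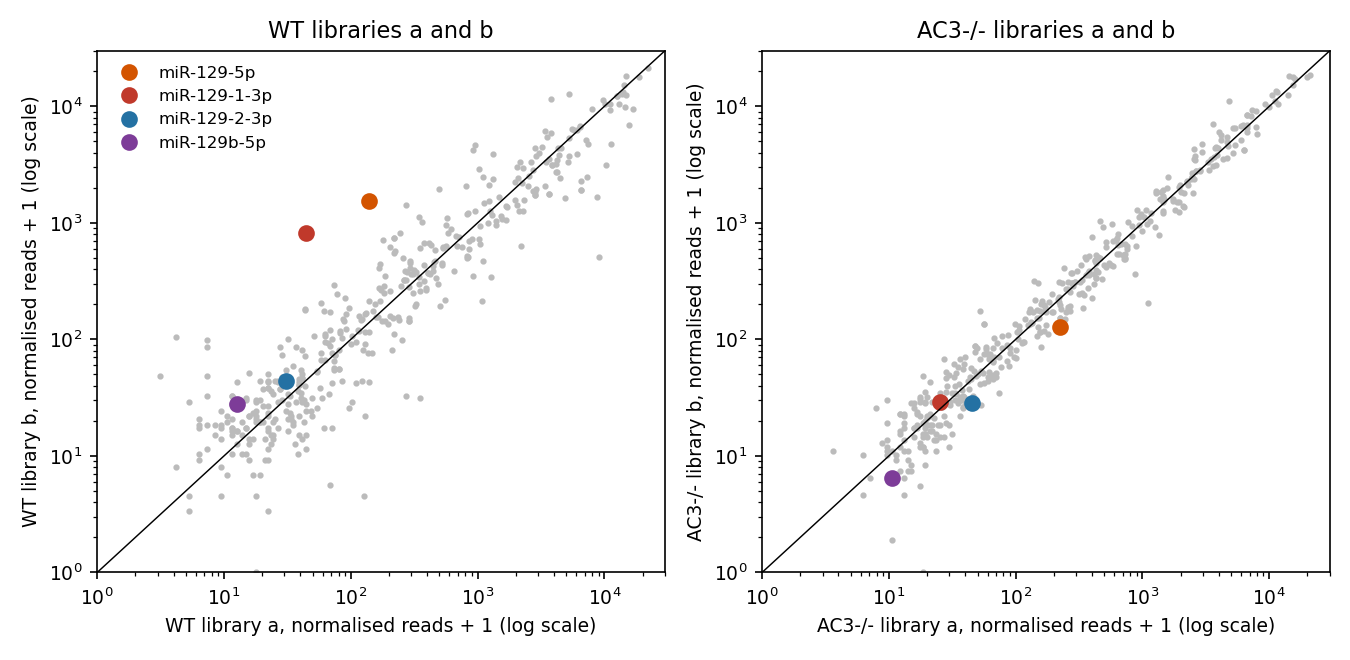
Normalised reads + 1 of 443 miRNAs (grey points, both axes log scale) in the WT pair, left, and the AC3-/- pair, right, with 4 miR-129 members in colour and a line of equality. miR-129-1-3p (43.6 against 821) and miR-129-5p (138.1 against 1538) lie far above the line in the WT pair, and 3 of the 4 lie nearer to it in the AC3-/- pair, all but miR-129-2-3p.

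The AC3-/- libraries differed less than the WT libraries in 4 of the 5 members, 2 of which share reads, miR-129-2-3p being the exception. Over all 443 miRNAs they also differed less, with an SD of the log2 ratio of 0.57 against 1.11. For miR-129-2-3p and miR-129b-5p the counting intervals of the AC3-/- and WT pairs overlap. miR-129-5p was 1.76-fold higher in library a than in library b (95% counting interval 1.42 to 2.17), and miR-129-2-3p was 1.63-fold higher (1.02 to 2.65). miR-129-1-3p went the other way, with a ratio of 0.864 (0.4996 to 1.49).

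Mir670, the other miRNA gene of the Mir670hg host, was hardly read in this tissue. It lies at chr2:94261300-94261399 on the minus strand, in an exon of that gene. miR-670-3p had 8, 0, 6 and 2 reads and miR-670-5p 1, 0, 0 and 1, in the same order of libraries. These depths allow no comparison with miR-129-2-3p.

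The profiles most like that of miR-129-5p were found by the root mean square difference of log2(normalised reads + 1), centred on each miRNA's own mean, over the 4 libraries. The 5 nearest outside the family were miR-325-5p (0.32), miR-183-3p (0.44), miR-879-3p (0.49), miR-182-3p (0.50) and miR-384-5p (0.54), against a median of 1.48 over all other miRNAs. Within the family the difference was 0.81 for miR-129-1-3p, 0.84 for miR-129b-5p and 1.26 for miR-129-2-3p. miR-183-3p and miR-182-3p, minor arms of the sensory-organ cluster, had 399 and 226 and then 879 and 365 normalised reads in AC3-/-. In WT they had 272 and 1410 and then 956 and 4672. miR-325-5p had 8.71 and 9.10 in AC3-/- and 6.38 and 98.2 in WT. miR-384-5p had 22.6 and 14.6, then 6.38 and 85.4, and miR-879-3p 5.23 and 3.64, then 6.38 and 31.6. All 5 were highest in WT library b, which largely sets this measure. miR-325-5p and miR-879-3p were under 10 in every other library, so they passed the filter of 10 only through WT library b. With 4 libraries it describes these samples only.

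**Figure D4:**
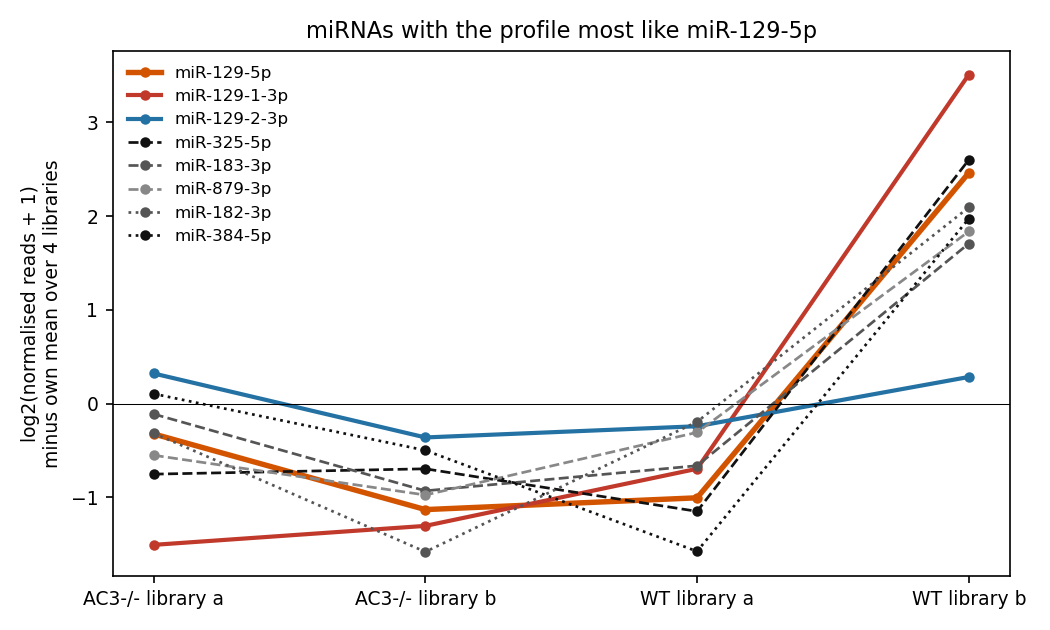
log2(normalised reads + 1) of each miRNA less its own mean, in each of the 4 libraries (lines only join the points of a miRNA; libraries have no order). The 5 nearest miRNAs are highest in WT library b, as miR-129-5p is, and miR-129-2-3p is not.

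Markers of the tissue and of other cells that a sample could hold were set beside these values. WT library b had the highest or the lowest sum in every list but that of brain tissue. The defining miRNAs of the labelled tissue were present. The 12 listed sensory-epithelium miRNAs, which are arms of the miR-183 cluster and of miR-200 relatives, were all in the table, with summed means of 1809407 in AC3-/- and 5429456 in WT. The 4 of them with library values summed to 4670 and 3967 in AC3-/- and to 5101 and 17781 in WT, and all 4 were higher in WT library b than in library a. The 4 glial miRNAs, of miR-219 and miR-338, summed to 708 and 553, then 404 and 1199, again with all 4 higher in WT library b. Most of each sum is miR-338-3p (218.9 and 737 in WT) and miR-338-5p (167.9 and 439 in WT). The miR-219 rows differed less between the WT libraries: miR-219a-2-3p had 5.31 and 8.19, and miR-219a-5p 11.7 and 15.2. The highest value of miR-219a-2-3p was in AC3-/- library b, at 29.1. The 7 of 8 brain-tissue miRNAs with library values summed to 17231 and 18143, then 14732 and 16112, but most of each sum is miR-218-5p (15933 and 17164, then 13905 and 13273). Of the 7, 5 were higher in WT library b than in library a, with a median log2 ratio of 0.79 over all 7. miR-138-5p (log2 ratio 1.99), miR-488-3p (1.96) and miR-153-3p (1.65) were furthest up, while miR-218-5p (-0.07) and miR-344-3p (-0.96) were lower. Both AC3-/- libraries lay above both WT libraries for miR-218-5p, miR-124-3p (228 and 182.96, then 21.3 and 37.4) and miR-344-3p (149.8 and 126.5, then 85.0 and 43.3). For miR-137-3p, miR-138-5p, miR-153-3p and miR-488-3p the groups overlapped. Of the 443 miRNAs, 33.9% had groups that did not overlap, in either direction. None of these 15 miRNAs was at 0 in any library.

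The 6 multiciliated-cell miRNAs with library values, from the miR-34b/c and miR-449 genes, were all lower in WT library b than in library a. They summed to 13840 and 26208 in AC3-/- and 30581 and 5971 in WT, and 1 of them, miR-449b, was at 0 in WT library b. The 6 leukocyte miRNAs, all lower too, summed to 15694 and 20157, then 17861 and 6369. The 4 red blood cell miRNAs, all lower too, summed to 6224 and 4759, then 5773 and 3180. The part of these shifts in the miR-129 values was not tested. In bulk tissue, fewer cells of a type and less RNA per cell cannot be told apart.

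**Figure D5:**
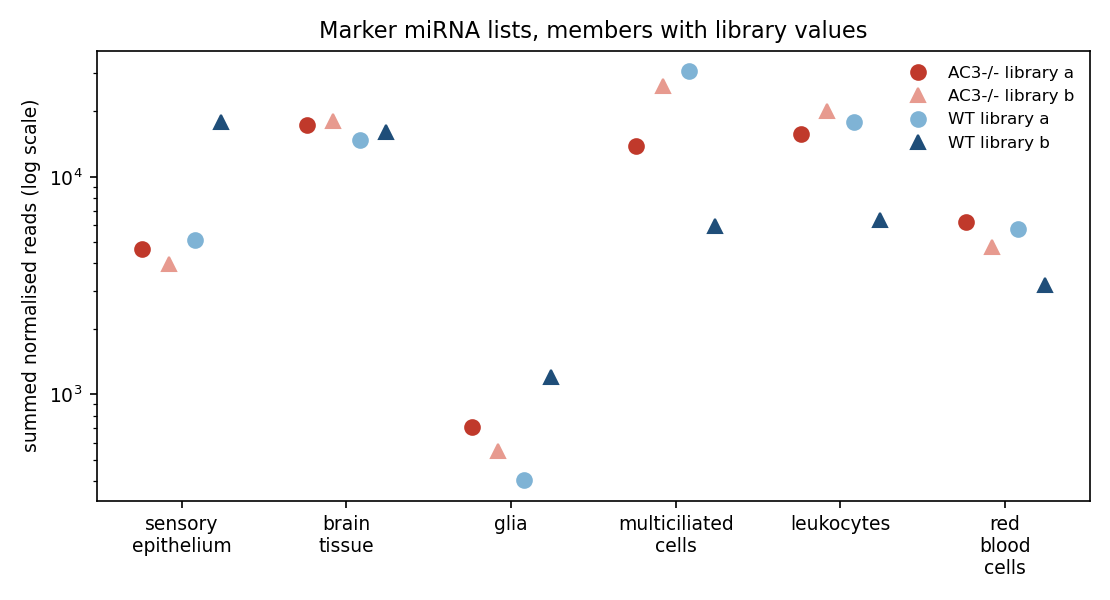
Summed normalised reads of each marker list in each library (log scale, members with library values; red for AC3-/-, blue for WT). In WT library b the sensory-epithelium and glial sums are the highest (17781 and 1199). Most of each glial sum is miR-338-3p and miR-338-5p. The multiciliated, leukocyte and red blood cell sums are the lowest in WT library b (5971, 6369 and 3180). Its brain-tissue sum, most of it miR-218-5p, lies within the range of the others, although 5 of the 7 members are higher than in WT library a.

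A list of 18 other miRNAs known from neurons was set beside the family. In the authors' deposited table, of the 18, 1 was higher in AC3-/- past the adjusted p of 0.05 and 0 were lower. Of all rows there, 0.0857% passed it in either direction. With an unadjusted p under 0.05 there were 2 higher and 1 lower, in a table where 3.51% of all rows had such a p. For the 17 that averaged 10 or more, the deposited means had a median log2 ratio of 0.09, beside -0.05 over all 492 such rows. Over the 14 with library values the median was 0.07 with all 4 libraries. It was 0.26 without WT library b, and -0.01 to -0.02 with any other library left out. The member past the threshold was miR-124-3p, a miRNA abundant in neurons, with 228 and 182.96 normalised reads in AC3-/- and 21.3 and 37.4 in WT. Both WT libraries lay below both AC3-/- libraries, and library b was not high as it was for miR-129-5p.

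The 4 most abundant neuronal miRNAs had means at most 1.22-fold apart between the genotypes. miR-9-5p, known from neural progenitors, had means of 107472 in AC3-/- and 103336 in WT in the authors' deposited table. miR-7a-5p had 23833 and 19461 there, miR-128-3p 4708 and 4136, and miR-218-5p, known from motor neurons, 16548 and 13589. Between the WT libraries 5 of the 14 list members with library values were at least 2-fold higher in library b, against 14.4% of the 443 miRNAs. Named here after their values were seen, they were miR-488-3p (499 and 1940), miR-138-5p (177 and 710), miR-153-3p (26.6 and 85.4), miR-330-3p (219.95 and 552) and miR-149-5p (1102 and 2451). Their folds were all smaller than that of miR-129-5p.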

How the data were processed

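The authors deposited 1 comparison table. Its abundance columns hold a signal, a mean of normalised reads per genotype, per the file headers. The authors' log2 fold change in the deposited table lay nearer to 0 than the log2 ratio of the means for each member. For miR-129-1-3p it kept 36.4% of that ratio. It is called shrunken here for that reason, and how it was computed is not given. The p-value and adjusted p-value are the authors', as deposited. Bowtie, DESeq 1.8.3 and GRCm38 are named in the submitters' processing notes with no role; how reads were counted and the miRBase release are not given here. Per the labels' protocols, adaptors were ligated to both RNA ends and products were amplified and sized on a gel; because ligation has sequence preferences, different miRNAs were not compared as molecule numbers.

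A mean of 2 libraries can only take values built from the worth of 1 read in each, so library reads were recovered where 1 combination matched within 0.75 of the last printed digit (1122 of 1167 rows for AC3-/-, 1126 for WT). On simulated tables all 1123 and 1127 such rows were right. The recovered size factors were 1.15 (a) and 1.10 (b) in AC3-/- and 0.941 (a) and 0.855 (b) in WT. Counting intervals are exact Clopper-Pearson. limma 3.58.1 (R 4.3.3, intensity trend, Benjamini-Hochberg adjustment) was fitted to log2(normalised value + 1) of rows with a mean of at least 10 as an alternative to the authors' test. The exact permutation tests planned for the locus and arm ratios are not given, because the family was chosen on the same genotype means and 2 libraries against 2 cannot pass a threshold of 0.05. Members, lists and tests were chosen with earlier results of these data known. miRNAs outside the family were named by rule: the 4 most abundant of the neuronal list and any past the adjusted p, and the 5 nearest profiles. Alternatives were other pseudocounts, the shrunken fold change, another scaling, other filters and leaving out each library.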

Additional observations from a re-analysis of the deposited data

How the results depend on the processing

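WT library b decided the direction of the shared 5p reads. With each library left out in turn, the log2 ratio of AC3-/- over WT ran from -3.14 to 0.34 for miR-129-5p, from -3.12 to 0.37 for miR-129b-3p and from -4.96 to -0.73 for miR-129-1-3p, the upper end in each case being the value without WT library b. The shrunken fold change in the authors' deposited table for miR-129-1-3p was -1.47. Members called went from 0 to 3 at an unadjusted p under 0.05, and from 0 to 3 over limma fits with 1 library left out, the 3 being without WT library a. The other 62 of 68 alternatives kept the direction, or moved by less than the spread between libraries, and stayed on the same side of the threshold where there was one. Trimmed-mean scaling moved the median log2 ratio of all miRNAs by -0.04. The difference of the locus ratio spanned -4.65 to -0.96 with 1 library left out, and that of the arm ratio 0.32 to 0.82. No paired analysis was possible because the table holds genotype means and the recovered libraries carry no replicate number. The planned edgeR and DESeq2 fits to the recovered reads were not run. Depth limits miR-129b-5p and the 3p arms most, at 6 to 51 reads in most libraries.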

Other observations

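The rows furthest up in WT library b over WT library a, noticed after the data were seen, were arms of few hairpins. Arms of the same hairpin are separate rows, and miR-129-5p and miR-129b-3p share reads. The rows are therefore not independent, and nothing is read from how few places they came from. Among 443 miRNAs the 7 highest were miR-384-3p, miR-129-1-3p, miR-325-3p, miR-325-5p, miR-384-5p, miR-129b-3p and miR-129-5p, and the next, let-7g-3p, was 7.52-fold higher. Mir384 and Mir325 lie 34.7 kb apart on the minus strand of the X chromosome (GRCm38). miR-384-3p had 19.2 and 13.7 normalised reads in AC3-/- and 3.19 and 104 in WT, where the low value rests on 3 reads. miR-325-3p had 2.61 and 10.01 in AC3-/- and 2.13 and 47.9 in WT, the low value from 2 reads. miR-325-5p had 8.71 and 9.10 in AC3-/- and 6.38 in WT library a, the last from 6 reads. Both miR-325 rows reached the average of 10 needed for the ranking only through WT library b. Without that library miR-384-3p would have lain near that average.

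Mir182 and Mir183, whose minor arms were among the profiles nearest to miR-129-5p, lie on the minus strand of chromosome 6, 1143 kb and 1147 kb beyond Mir129-1, which is on the plus strand. The other near profiles came from the X chromosome (Mir325 and Mir384) and from chromosome 5 (Mir879). Mir129-2, on chromosome 2, gave the 3p arm that did not follow. Whether position has a part in these values was not tested.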
